A study of Mus musculus with 2 samples.

Results

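The genes described here code for the proteins of the cytosolic ribosome. They were chosen by name: symbols that begin with Rpl or Rps followed by a digit, together with Rplp0, Rplp1, Rplp2 and Rpsa, without symbols that carry a pseudogene mark and without the Rps6k kinases. A minimum of 100 UMIs (unique molecular identifiers, each standing for 1 captured mRNA molecule) over both libraries was then applied. Of 31053 genes in the files 86 matched the names and 83 passed the minimum, and these 83 are called the members. The 3 that did not pass were Rpl3l with 1 UMI in each library, Rpl10l with 0 and 1 UMIs, and Rpl39l with 0 UMIs in both. Of the members, 31 belong to the small subunit, 46 to the large subunit, 5 are paralogs (Rpl7l1, Rpl22l1, Rpl36al, Rps27l and Rps27rt) and Rps19bp1 is not a ribosomal protein but a binding partner of Rps19 that carries the name.

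A cytosolic ribosome is built from a small subunit, which holds the mRNA and reads the code, and a large subunit, which joins the amino acids. Each structural protein is needed in a fixed ratio to the ribosomal RNA, and growing blood precursors and leukemia cells spend much of their transcription on these genes. Their mRNAs are short, stable and abundant, and most begin with a run of pyrimidines through which mTOR sets their translation. A few ribosomal proteins also act outside the ribosome: free Rpl5, Rpl11 and Rpl23 bind Mdm2 and so release p53, and loss of 1 copy of several of these genes causes anaemia in people.

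The cells came from AE9a leukemia, an acute myeloid leukemia of the mouse driven by AML1-ETO9a, a truncated form of the AML1-ETO fusion, delivered with GFP by retrovirus. All leukemia cells carried 1 floxed Usp18 allele (Usp18+/f) and a Cre that tamoxifen activates, under a promoter active in most tissues. Recipients received oil, giving the library labelled Usp18+/f, or tamoxifen, giving the library labelled Usp18+/Δ, and GFP+ Lin- c-Kit+ splenocytes were sorted on day 3, counted from the first of the injections. Each library is a pool of 3 mice with a target of 8000 cells, and no group has a replicate. Oil and tamoxifen also differ as agents, and the effect of the drug, of Cre activity and of the loss of 1 Usp18 allele cannot be told apart. The mice were of both sexes and 8 to 12 weeks old. The libraries are called by their labels, oil and tamoxifen, because the targeted gene goes against one of them: Usp18 stood at 5.68 CPM (UMIs of a gene scaled to a library total of 1000000) in the library labelled oil and at 24.1 CPM in the library labelled tamoxifen. Isg15, a gene induced by interferon as Usp18 itself is, stood at 20.9 and 116 CPM. Which part of Usp18 the deletion removes was not given in the sources used here, and a tag from the 3′ end of the mRNA would not show a deletion elsewhere.

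The libraries held 63690481 UMIs over 7281 barcodes (oil) and 65146263 UMIs over 7833 barcodes (tamoxifen). After filters on genes, mitochondrial UMIs and doublet score, 6546 and 7073 cells with medians of 8576 and 8023 UMIs were kept. The libraries shared 15 barcode strings. Of the markers, Kit stood at 96.8 and 102 CPM, Cd34 at 6.17 and 16.4 CPM, and Ptprc, the gene of CD45, at 9 and 14 UMIs in all. The summed level of 5 erythroid markers was 4008 and 4175 CPM and that of 6 mast cell and basophil markers 1073 and 1104 CPM, whereas 5 neutrophil markers summed to 0.0344 and 22.5 CPM, 5 macrophage markers to 2.08 and 5.61 CPM, and B and T cell markers to at most 0.403 CPM. The part of these cells in the results below was not tested. With 1 library a group no test was run. Each interval is an exact 95% interval of counting error only, and does not cover the difference between mice or between libraries.

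The members held a large part of all captured mRNA molecules, with 15105254 of 58068183 UMIs (26.0%) in the library labelled oil and 15707814 of 59503327 UMIs (26.4%) in the library labelled tamoxifen. The log2 ratio of these shares was 0.021 (interval 0.020 to 0.022). The small subunit made up 10.97% and 11.15% of UMIs, and the large subunit 14.82% and 15.04%. Both subunits therefore stood slightly higher in the library labelled tamoxifen, by log2 ratios of 0.023 and 0.021. The members filled 67 of the 100 highest places among all genes.

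The members differed far more from each other than between the libraries. Because each transcript gives 1 tag at its 3′ end in this chemistry, levels were compared between genes without division by length. The median member stood at 3049 CPM, 75 members lay above 1000 CPM and 8 below. Rpl13, a large subunit protein, was the highest with 11634 CPM (oil) and 11733 CPM (tamoxifen), in place 3 of all genes. Rplp1, which with Rplp2 and Rplp0 forms the stalk where elongation factors dock, stood at 6413 and 6682 CPM.

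Also among the 10 highest were Rpl8, Rplp0, Rps7, Rpl32, Rps18 and Rps12, whose means over the libraries ran from 5484 to 5808 CPM. Together the 10 highest held 6.35% and 6.54% of all UMIs. The stalk genes were not level with each other. Rplp0 stood at 5564 and 5981 CPM and Rplp2 at 2626 and 2602 CPM, below Rplp1 in both libraries, although its protein pairs with that of Rplp1.

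Members known for a role of their own lay across the range. Rpsa, which is also a laminin-binding protein, stood at 4872 and 5117 CPM, and Rps27a, which is made as a fusion with ubiquitin, at 4439 and 4708 CPM. Rpl23 stood at 4749 and 4992 CPM, Rpl11 at 3170 and 3182 CPM and Rpl5 at 2270 and 2183 CPM. Rps19, the gene most often lost in Diamond-Blackfan anaemia, stood at 3564 and 3659 CPM. Rps3, which also takes part in DNA repair, stood at 2827 and 2904 CPM, and Rps6, whose protein is phosphorylated by the S6 kinases, at 2479 and 2522 CPM. Rpl10, a late-joining protein of the large subunit, stood at 2328 and 2423 CPM, and Rps25, which is needed for initiation at viral internal entry sites, at 2501 and 2357 CPM. Rps26, which lies at the mRNA exit, stood at 1737 and 1638 CPM, and Rpl38, which is needed for the translation of some Hox mRNAs, at 1404 and 1337 CPM.

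Rpl13a was the lowest structural member with 335 and 341 CPM. Its protein is also known as a part of the interferon-gamma translation silencer. Its neighbours in the order were Rpl27 with 466 and 407 CPM and the paralog Rpl36al with 233 and 216 CPM. The other low members were Rpl7l1 (116 and 113 CPM), Rps19bp1 (60.3 and 59.4 CPM) and Rps27rt (41.0 and 33.3 CPM). Reads that match several places in the genome were not counted by the authors' software, and many of these genes have processed copies in the genome, so a low level can also mean that reads were lost. This was not tested. The 9 genes with a pseudogene mark held 0.0421% and 0.0385% of UMIs.

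**Figure D1:**
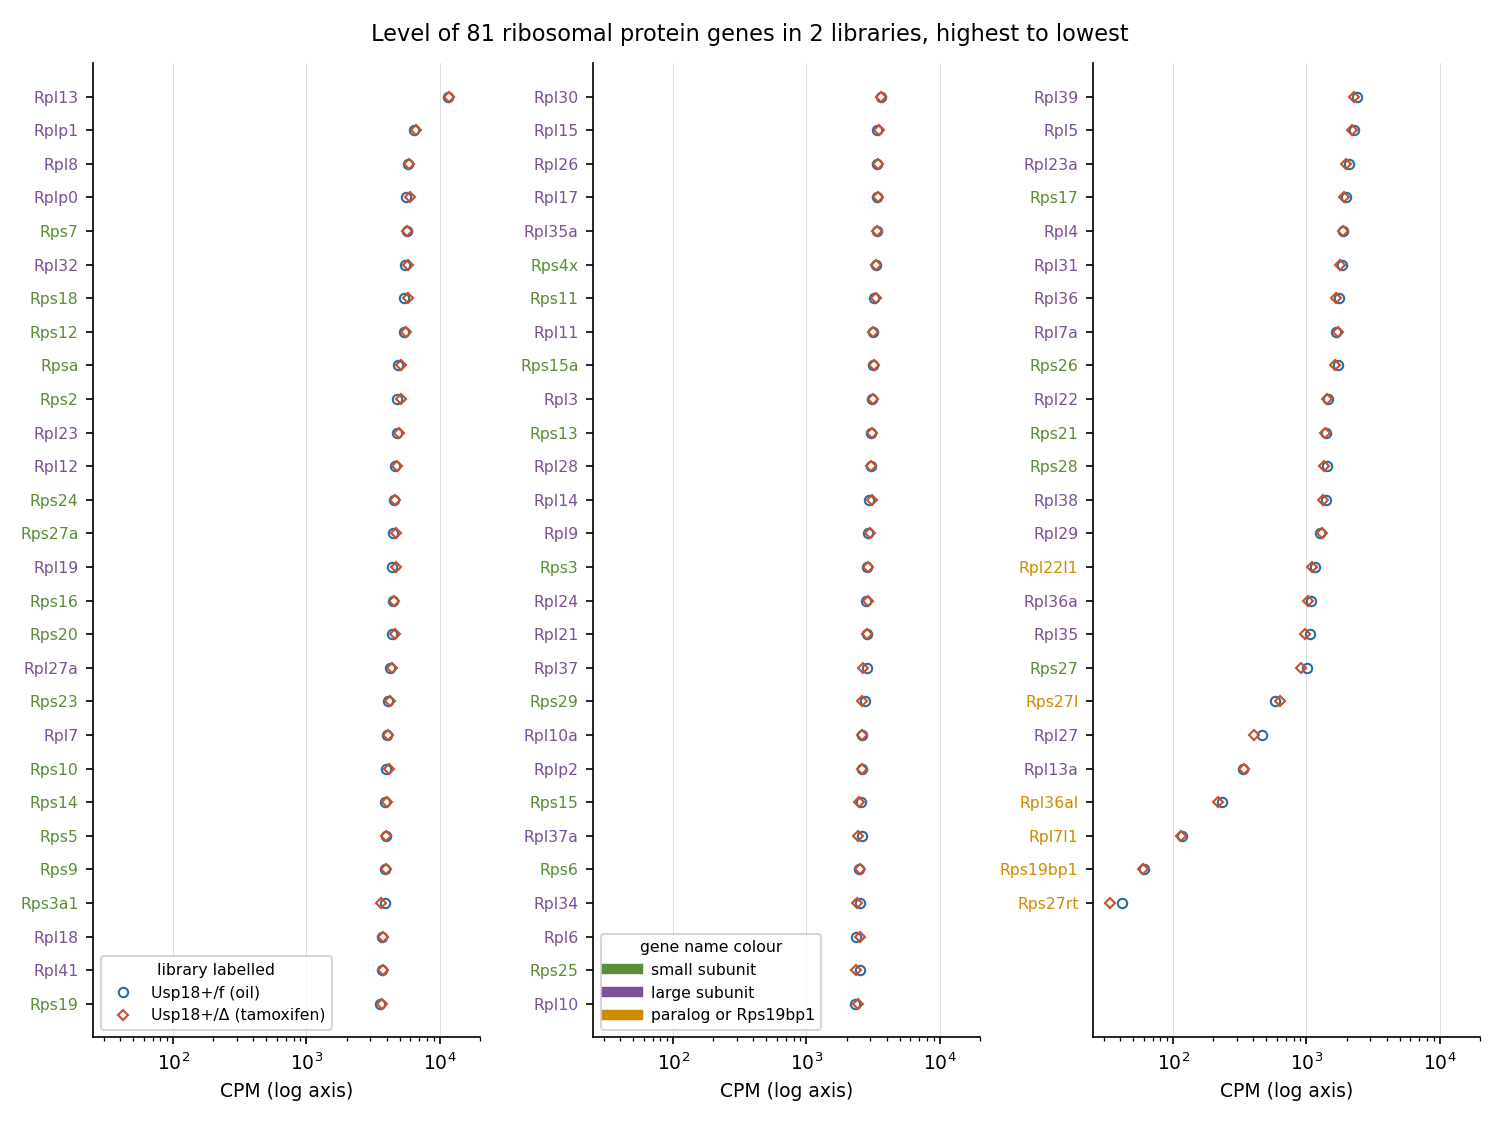
Level in CPM of 81 of the 83 members, the others not being drawn, on a log axis, ordered from highest to lowest over 3 panels, with circles for the library labelled oil and diamonds for the library labelled tamoxifen. The symbols of each gene nearly coincide, from Rpl13 at 11634 and 11733 CPM down to Rps27rt at 41.0 and 33.3 CPM.

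Paralogs are here genes related to that of a ribosomal protein, some of them used mainly in testis or muscle. Rpl3l, known from heart and skeletal muscle, and Rpl10l and Rpl39l, known from the male germ line, held 0 or 1 UMI in each library beside 178920, 135174 and 138562 UMIs of their parents Rpl3, Rpl10 and Rpl39 in the library labelled oil. As a one-sided limit a count of 0 allows up to 3 UMIs, or 0.0517 and 0.0504 CPM; the upper ends of the exact 95% intervals are 0.0635 and 0.0620 CPM. Rpl22l1, which is known to be held down by Rpl22, was the paralog closest to its parent: it reached 79.3% of the UMIs of Rpl22 in the library labelled oil and 77.2% in the library labelled tamoxifen. Rpl36al reached 21.5% and 20.96% of Rpl36a. Rpl7l1, a distant relative of Rpl7 with 51.7% identical coding bases and a known part in ribosome assembly, reached 2.88% and 2.77%.

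The Rps27 family held the members with the highest and the lowest ratio between the libraries, so its coding sequences are shown. Rps27 lies on the minus strand at chr3:90212522-90213651 of mm10, Rps27l on the plus strand at chr9:66946086-66949516, and the retrogene Rps27rt on the minus strand at chr9:114982366-114982739. In GENCODE vM21 all 3 have a coding sequence of 252 bases. That of Rps27rt is identical to Rps27 in all 252 bases and is not printed, and in that of Rps27l the 60 bases that differ from Rps27 are in capitals.

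Rps27: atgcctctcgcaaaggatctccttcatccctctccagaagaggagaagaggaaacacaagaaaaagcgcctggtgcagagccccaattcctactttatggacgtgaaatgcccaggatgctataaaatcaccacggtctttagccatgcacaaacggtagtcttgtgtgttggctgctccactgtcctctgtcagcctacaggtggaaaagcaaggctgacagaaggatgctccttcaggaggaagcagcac

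Rps27l: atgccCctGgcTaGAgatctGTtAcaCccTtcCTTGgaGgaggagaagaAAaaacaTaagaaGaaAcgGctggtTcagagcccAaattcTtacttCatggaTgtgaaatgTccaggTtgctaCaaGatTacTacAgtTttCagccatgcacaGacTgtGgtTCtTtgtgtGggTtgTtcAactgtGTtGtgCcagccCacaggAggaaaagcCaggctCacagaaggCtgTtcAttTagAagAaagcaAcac

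Rps27, a zinc finger protein of the small subunit, stood at 1003 CPM (interval 994 to 1011) in the library labelled oil and at 914 CPM (906 to 921) in the library labelled tamoxifen. Rps27l, a direct target of p53, stood at 585 CPM (579 to 591) and 630 CPM (623 to 636). The paralog thus stood higher in the library labelled tamoxifen and its parent lower, and its UMIs were 58.3% and 68.9% of those of Rps27 (intervals 57.6% to 59.1% and 68.0% to 69.8%). In barcodes with no more than 5% mitochondrial UMIs the log2 ratio of Rps27l between the libraries was -0.082, of the opposite sign to the 0.11 in all kept cells, and that of Rps27 was -0.053 in place of -0.13. That subset held 1013 and 732 of the kept cells, and 313 and 61 of these were the shallow barcodes at or under 2% mitochondrial UMIs, so the libraries differed in its make-up. Rps27rt stood at 41.0 and 33.3 CPM, or 4.08% and 3.64% of Rps27. Since the coding sequences of Rps27 and Rps27rt are the same, reads inside them cannot be told apart, and the level of either gene is uncertain.

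Genes outside the naming rule also code for a ribosomal protein or a ribosome-bound protein. Fau, which gives Rps30 fused to a ubiquitin-like protein, stood at 2924 and 2947 CPM, and Rack1, a signalling scaffold on the small subunit, at 3073 and 3111 CPM. Rps27a, made as a fusion with ubiquitin and itself a member, had a log2 ratio of 0.085.

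Next, each member was compared between the libraries. The median log2 ratio of CPM, tamoxifen over oil, was 0.017 over the 83 members and 0.014 over all 10825 genes with at least 100 UMIs. Of the members 47 lay above 0 and 36 below, and of all 10825 genes 5909 lay above and 4916 below. Over the 1602 genes averaging 100 CPM or more, a level closer to that of the members, the median was -0.018, with 687 genes above 0 and 915 below. A log2 ratio of 0.25 or more in size was reached by 1 member, Rps27rt, and by 13.7% of all genes tested. Among these 1602 genes, which hold 81 of the members, 3.43% reached it (1.5% upwards and 1.94% downwards) and no member did. With the smaller fold of 0.1 the counts were 9 members, 3 of them up and 6 down, beside 43% of all genes (25.5% up and 17.6% down). Of the genes averaging 100 CPM or more 28.5% passed the smaller fold (9.99% up and 18.5% down), and of the 81 members there 3 passed up and 5 down.

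The 5 highest ratios belonged to Rps27l (0.11), Rplp0 (0.10), Rps2 (0.10), Rps18 (0.10) and Rpl19 (0.087). Rps2, at the mRNA entry of the small subunit, stood at 4801 and 5148 CPM, and Rps18, at the head of the small subunit, at 5371 and 5747 CPM. Rpl19, which bridges the subunits, stood at 4401 and 4676 CPM. At no more than 5% mitochondrial UMIs Rps2 had -0.026, and like Rps27l turned sign. The 5 lowest ratios belonged to Rps27rt (-0.30, interval -0.39 to -0.21), Rpl27 (-0.20, interval -0.22 to -0.17), Rps27 (-0.13), Rpl35 (-0.12) and Rpl36al (-0.11). Rpl35, a protein at the exit tunnel for new chains, stood at 1064 and 979 CPM. At no more than 5% mitochondrial UMIs Rpl27 had -0.097 and Rpl35 -0.060.

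Of the members that bind Mdm2, Rpl23 had a log2 ratio of 0.072, Rpl11 of 0.0057 and Rpl5 of -0.057. Rps6 had 0.025, Rps3 0.039, Rps19 0.038, Rpl10 0.058, Rpl13a 0.025 and Rpsa 0.071, all above 0 by small amounts. Rps25 (-0.085), Rps26 (-0.085) and Rpl38 (-0.071) lay below 0. The stalk genes split, with Rplp0 at 0.10, Rplp1 at 0.059 and Rplp2 at -0.013.

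The members with short coding sequences lay below 0 and the longer ones above. Of 11 members of at most 300 coding bases 9 had a ratio below 0, with a median of -0.071, and of 30 members of 300 to 450 bases 18 lay below 0, with a median of -0.013. Of 19 members of 450 to 600 bases 16 lay above 0 (median 0.037), of 20 members of 600 to 900 bases 14 did (median 0.025), and the 3 longest, Rplp0, Rpl3 and Rpl4, all did. The exceptions among the shortest were Rpl41, whose coding sequence of 75 bases is the shortest of all, at 0.028, and Rps27l. Across the 83 members Spearman's correlation between ratio and coding length was 0.43 (Pearson's r 0.37), a description over genes of the same 2 libraries. At no more than 5% mitochondrial UMIs it was 0.23.

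The same order was seen outside the family. Over 1505 other genes averaging 100 CPM or more Spearman's correlation was 0.43, and their medians rose from -0.095 in genes of at most 300 coding bases through -0.076, -0.053 and -0.030 to 0.016 above 900 bases. In each of these length ranges the median member lay above the median of the other genes. Within the family the ratio also followed the level, with a rank correlation of 0.60 against mean CPM, which was -0.093 over the other genes. Level and coding length were themselves related over the members (rank correlation 0.34). The relation with coding length was looked for after the ratios had been seen.

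**Figure D2:**
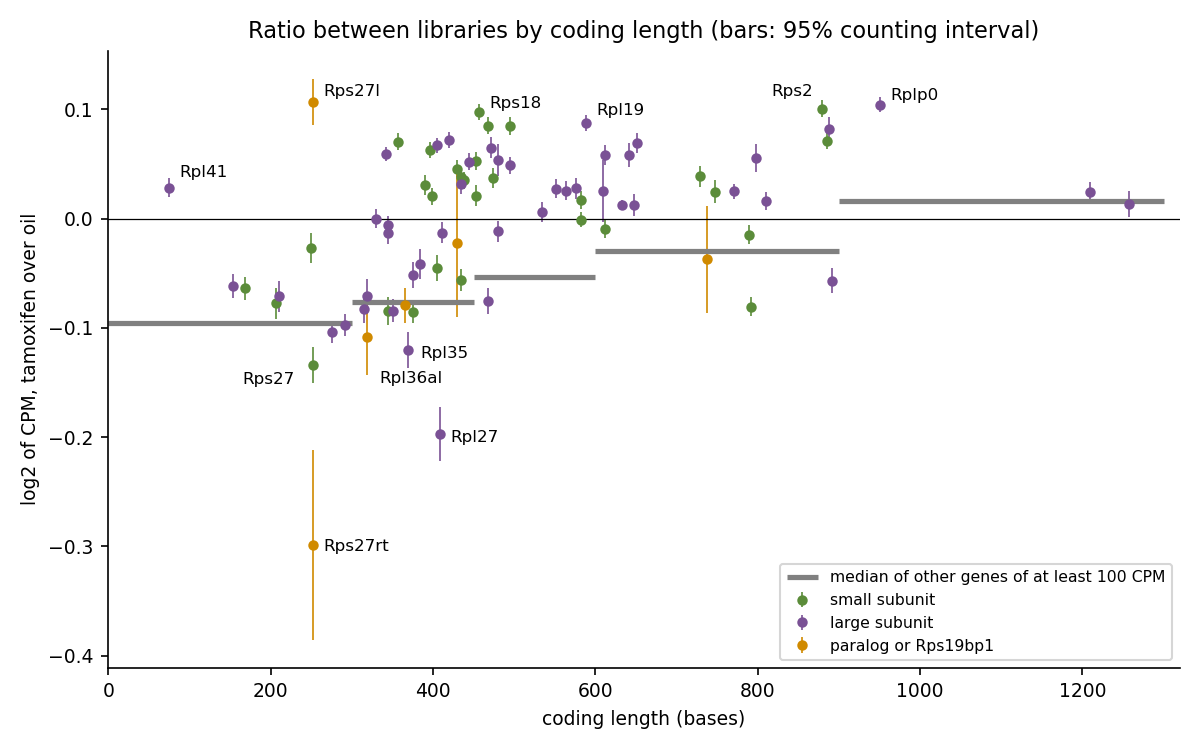
Log2 ratio of CPM, tamoxifen over oil, of 81 of the 83 members (the others are not drawn) against coding length in bases, with bars for the 95% counting interval and grey lines for the median of other genes of at least 100 CPM in each length range. The grey lines climb from -0.095 to 0.016, and Rps27rt at -0.30 lies far below members of like length.

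Within each cell cycle phase the ratios kept much of this order. In cells thinned to 3000 UMIs, 56 of 83 members had the same sign in G1, S and G2M, 32 of them above 0 and 24 below. The rank correlation between the ratios of S and G2M was 0.89, and between G1 and S 0.67. With coding length it was 0.28 in G1, 0.53 in S and 0.44 in G2M. The share of all members differed between the libraries mainly in G1, by a log2 ratio of 0.055, beside -0.0017 in S and 0.015 in G2M.

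Other genes of protein synthesis were set beside the members from lists. Of 24 translation factors 0 passed the fold of 0.25 in either direction, with a median log2 ratio of 0.0019. They ran from Eif4e, the cap-binding factor, at -0.23 to Eif4g2 at 0.17. Of 29 ribosome assembly genes 0 passed, with a median of -0.0052, from Gar1 at -0.24 to Npm1, a nucleolar chaperone often mutated in acute myeloid leukemia, at 0.16. Of 77 tested genes for mitochondrial ribosomal proteins 0 passed, 24 lay above 0 and the median was -0.035. Of 8 host genes of small nucleolar RNAs 2 were found among the symbols of the files, Snhg6 at -0.16 and Snhg12 at -0.14. The share of all tested genes past the fold was 9.76% upwards and 3.93% downwards. Among genes averaging 100 CPM or more, the level of most of the translation factors, it was only 1.5% and 1.94%.

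The share of member UMIs was then followed over the mitochondrial percentage of barcodes with at least 500 genes, a measure often read as cell quality. Between 2% and 10% mitochondrial UMIs, where most barcodes lay, the share of all UMIs ran from 25.8% to 26.3% in the library labelled oil and from 25.8% to 26.4% in the library labelled tamoxifen. Of all UMIs it was lower at both ends. At 0 to 2% it was 22.0% (interval 21.9% to 22.1%, 313 barcodes) and 19.1% (18.8% to 19.3%, 61 barcodes). At 10 to 20% it was 24.5% (146 barcodes) and 23.9% (220 barcodes). Above 20% it was 14.1% (15 barcodes) and 12.6% (22 barcodes).

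Both shares have the same total, so part of the fall at high mitochondrial percentage is arithmetic. As a share of non-mitochondrial UMIs the members held more from range to range between 2% and 10%, from 26.9% to 28.7% (oil) and from 26.7% to 28.8% (tamoxifen). They held 27.5% and 27.1% at 10 to 20%, above the range of 2 to 4% and below that of 6 to 8% (28.04% and 28.4%), and 20.5% and 17.7% above 20%. The barcodes at both ends were shallow. At 0 to 2% the median was 1068 and 1236 UMIs, and Malat1, a nuclear RNA, took 1.16% and 1.58% of UMIs there beside 0.818% and 0.805% at 6 to 8%. Gm42418, a gene that overlaps ribosomal RNA sequence, took 0.674% and 0.420% beside 0.121% and 0.145%, and AY036118, another such gene, 0.149% and 0.0873% beside 0.0204% and 0.0193%. The part of depth and of nuclear RNA in the lower share was not tested. Thinned to 3000 UMIs, 8 and 4 barcodes were left at 0 to 2%, with member shares of 26.0% and 17.8%.

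**Figure D3:**
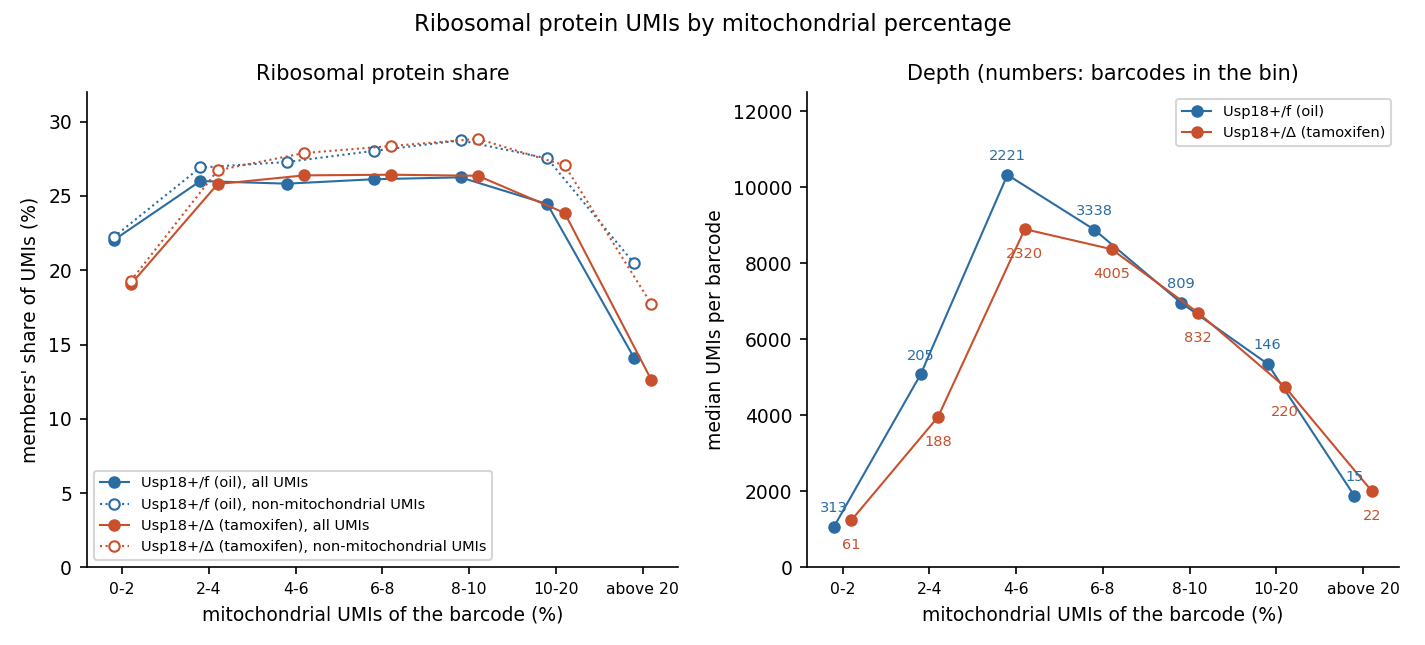
Left, members' share of UMIs (filled, all UMIs; open, non-mitochondrial UMIs) against the mitochondrial percentage of the barcode in 7 ranges for both libraries. Right, median UMIs per barcode, with the number of barcodes; the share of all UMIs stays near 26% from 2% to 10% and falls to 14.1% and 12.6% above 20%, where barcodes are few and shallow.

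The members did not fall together in the barcodes with at most 2% mitochondrial UMIs. Against the barcodes at 6 to 8%, 63 of 83 members were lower in both libraries and 2 were higher in both. Counts over all genes are not given here, so these have no background. The following genes were picked after their values were seen. Rps9 had log2 ratios of -1.36 (oil, interval -1.47 to -1.24) and -0.85 (tamoxifen, -1.05 to -0.65), Rps2 of -1.15 and -1.47, and Rps15 of -1.11 and -1.004. Rpl41 was lower by similar amounts, -1.001 and -1.13. At the other end Rpl7a was higher in the library labelled oil, 0.48 (interval 0.38 to 0.58), with -0.10 (-0.34 to 0.13) in the library labelled tamoxifen. Rps27, with 435 and 95 UMIs there, had 0.14 (interval 0.0045 to 0.28) and 0.16 (-0.14 to 0.45, which holds 0). The ratios of the members in both libraries had a rank correlation of 0.68, and that with coding length was -0.089 and -0.22.

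Cells were called G1, S or G2M from fixed lists of cycle genes that hold no member, after thinning each to 3000 UMIs. The member share in G1 was 26.7% (oil, 1460 cells) and 27.8% (tamoxifen, 2050 cells), in S 26.8% (1702 cells) and 26.8% (1822 cells), and in G2M 25.5% (2928 cells) and 25.7% (2851 cells). The share was lower in G2M than in G1 by log2 ratios of -0.069 (interval -0.072 to -0.066) and -0.11. At no more than 5% mitochondrial UMIs they were 0.038, of the opposite sign, and -0.050. The standard deviation between single cells was 4.79 and 3.94 percentage points in G1 and 2.68 and 2.42 in G2M. G1 cells were shallower before thinning, with medians of 6430 and 5918 UMIs beside 10705 and 10110 in G2M, and the part of depth was not tested.

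Single members kept their place between phases from library to library. Between G2M and G1, 56 of 83 members were lower in both libraries and 19 higher in both, and the rank correlation between the libraries was 0.94. Taken singly, 58 members lay below 0 in the library labelled oil and 62 in the library labelled tamoxifen. Of all genes tested 5792 of 10797 and 5718 of 10811 did, and of the 1602 genes averaging 100 CPM or more 654 and 646. The cells of a library share their phase calls, so the members are not independent points. Of the 81 members with at least 100 CPM, 6 passed the fold of 0.25 in the library labelled oil, 3 up and 3 down, beside 54.1% of all genes of that level (35% up and 19.2% down). In the library labelled tamoxifen 13 passed, 1 up and 12 down, beside 59.7% (38.8% up and 20.8% down). Lowest by the mean of both libraries were Rpl10 (-0.27 and -0.38), Rps27 (-0.23 and -0.37) and Rplp1 (-0.29 and -0.30). Fau, outside the rule, had -0.27 and -0.35.

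By the mean of both libraries the highest at that level were paralogs: Rpl7l1 (0.34 and 0.47), Rps27l (0.29 and 0.23) and Rpl36al (0.26 and 0.21). Rps19bp1, below that level, had 0.73 (interval 0.48 to 0.99) and 0.60 (0.38 to 0.82). Rps27 thus lay below 0 and its paralog Rps27l above 0 in both libraries. The stalk gene Rplp2 had -0.057 and -0.14 and Rplp0 -0.13 and -0.18. Of the Mdm2-binding members Rpl5 had 0.049 and 0.056, Rpl11 -0.040 and -0.059, and Rpl23 -0.12 and -0.18. The median ribosome assembly gene stood at 0.63 and 0.82 and the median mitochondrial ribosomal protein gene at 0.39 and 0.40, beside medians of -0.051 and -0.095 for the members and 0.088 and 0.11 for all genes of at least 100 CPM.

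**Figure D4:**
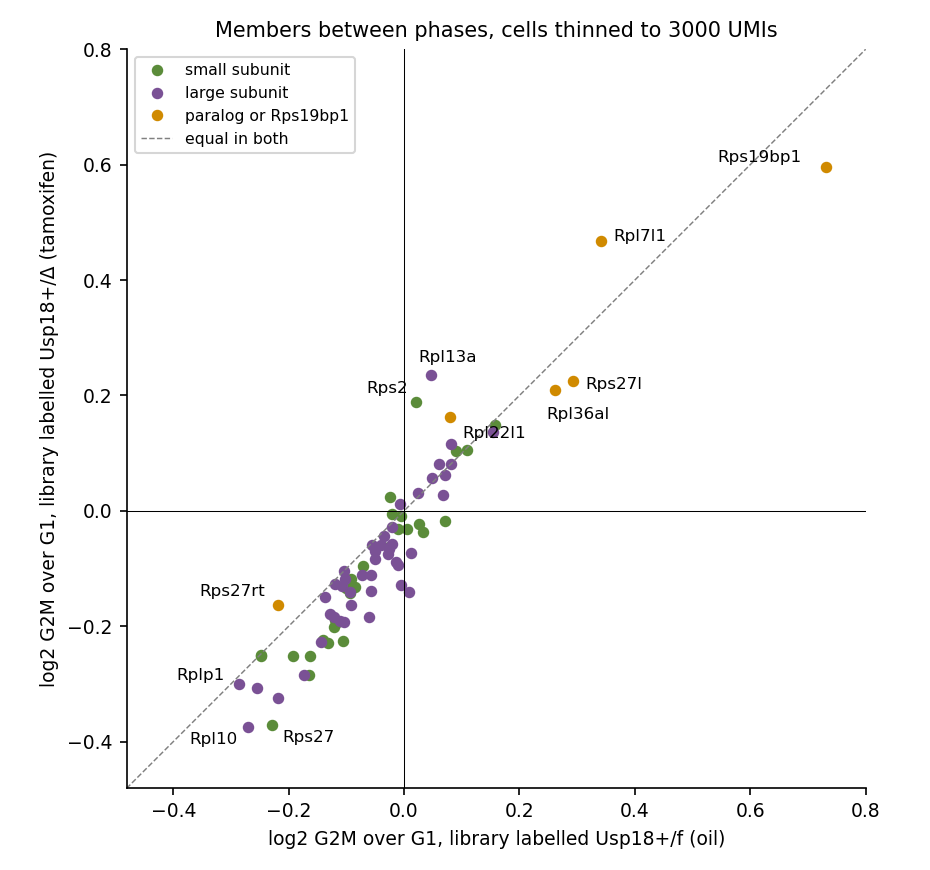
Log2 ratio of 81 of the 83 members (the others are not drawn) between G2M and G1 cells thinned to 3000 UMIs, library labelled oil on the horizontal and library labelled tamoxifen on the vertical axis, with the dashed line marking equal values. Most members lie below 0 on both axes, with Rpl10, Rps27 and Rplp1 lowest by the mean of both libraries. Of the 5 paralogs 4 lie above 0 on both, as does Rps19bp1.

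The share was also taken over ranges of other genes' UMIs in the thinned cells. These are ranges of a count and not cell types, and many cells lie near the borders. Over UMIs of interferon-stimulated genes (ISGs) the members held 26.4% and 26.7% in cells with 0 to 1, and 23.2% (50 cells) and 25.9% (750 cells) in cells with more than 10. The log2 ratio between these ends was -0.18 (interval -0.20 to -0.17) and -0.043 (-0.048 to -0.038). The border at 10 had 81 and 599 cells with 9 to 12 UMIs. Over the UMIs of the mast cell proteases Mcpt1 and Mcpt2 the share was 26.4% and 26.7% at 0 and 23.3% (468 cells) and 24.98% (245 cells) at 3 or more, with 334 and 240 cells at 2 to 4. Over Cpa3, another mast cell protease, the ranges differed less, from 25.5% to 26.4% (oil) and from 26.5% to 27.2% (tamoxifen). Cells rich in ISG or Mcpt UMIs were shallower before thinning, with medians of 5027 to 6596 UMIs beside 8521 to 9217 at the low ends. The part of depth and of phase was not tested.

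Within these ranges members again moved unequally. The following values were taken after those of the whole family had been seen. In cells with more than 10 ISG UMIs 76 of 83 members (oil) and 58 of 83 (tamoxifen) were lower than in cells with 0 to 1. The share of all genes lower there is not given here, so these counts stand without a background. Rps27 was higher, 0.20 and 0.24, and Rplp1 was too, 0.11 and 0.17, while Rps2 was lower, -0.55 and -0.24. Rpl10 had -0.09 and 0.14. The members that were low in G2M were thus among the high ones here: the rank correlation between both ratios was -0.75 (oil) and -0.92 (tamoxifen), over 83 members measured in partly the same cells. Between the Mcpt and ISG contrasts it was 0.80 and 0.87. The ISG and Mcpt ranges were not matched for phase, and the part of phase in these correlations was not tested.

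**Figure D5:**
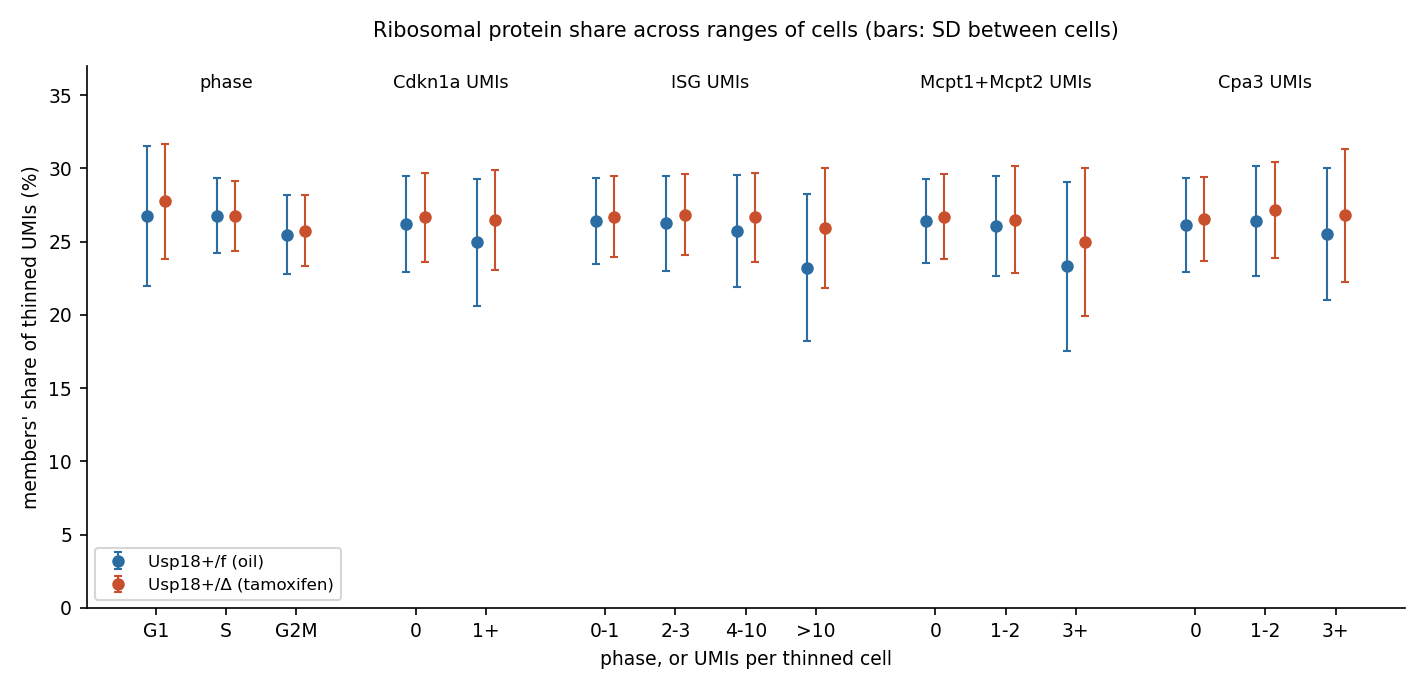
Members' share of thinned UMIs in phases and in ranges of Cdkn1a, ISG, Mcpt1 and Mcpt2, and Cpa3 UMIs per cell for both libraries, with bars for the standard deviation between cells. Means lie between 23.2% and 27.8%, and the lowest belong to cells with more than 10 ISG UMIs or 3 or more Mcpt UMIs in the library labelled oil.

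Cdkn1a, the p21 gene and a p53 target, stood at 21.9 and 62.9 CPM. In cells with at least 1 Cdkn1a UMI (332 and 895 of the thinned cells) the members held 24.9% and 26.5% of UMIs, beside 26.2% and 26.7% in cells without. Most of the positive cells, 290 and 627, had a single UMI. Rps27l, a p53 target itself, was higher in the positive cells of both libraries, by log2 ratios of 0.25 (interval 0.14 to 0.37) and 0.46 (0.39 to 0.53). The median member had -0.068 and -0.014, and 76 and 56 of 83 lay below 0. No such count over all genes is given here to set beside these. Rps27rt had 0.29 and -0.090, and Rpl10, the highest structural member in the library labelled tamoxifen, had -0.035 and 0.10. Rps27 had -0.10 and 0.064. This contrast was chosen after the level of Rps27l had been seen.

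In kept cells the median share was 26.2% (oil) and 26.5% (tamoxifen), with the 5th percentile at 19.5% and 20.9% and the 95th at 30.7% and 31.5%. At 3000 UMIs the standard deviation between cells was 3.34 and 3.08 percentage points, beside 0.802 and 0.807 from binomial counting. Under 15% lay 100 (1.53%) and 94 (1.33%) of the kept cells. For single members the variance over the mean, which is 1 for pure counting, had medians of 1.24 and 1.26 over the 78 members with at least 1 UMI per thinned cell, beside 1.15 and 1.19 over 267 and 272 other genes. Rplp1 (1.86 and 1.80), Rpl13 (1.74 and 1.78) and Rps2 (1.72 and 2.01) varied most. The variance over the mean grows with the level, which was not matched between members and other genes.

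Last, the start of the promoters was read, since a run of pyrimidines at the first base marks mRNAs of this family. RefSeq promoter windows (GRCm38.p6, 250 bases before to 50 from the start) were found for 63 of the 83 members. An unbroken run of at least 6 bases C or T over an annotated start base of the gene was found in 20 of the 63 (31.7%), beside 8.48% of 27025 genes in the table. The letters CTTTC within 20 bases on either side of the start, on the transcribed strand only, were found in 19 (30.2%) of members and 6.44% of all genes. This motif was chosen after seeing the windows, and it can overlap the run. Windows from 20 bases before the start to base 10 are shown for 4 members with a run, in capitals, and for Rps27l without, since they pair the parent with its paralogs and hold a stalk gene and the S6 kinase substrate.

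Rps27, chr3:90213639-90213668, minus strand: acaggatttccgctttcgCTCCTTTCCggc

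Rps27rt, chr9:114982730-114982759, minus strand: ggttaagaacttatcccttgCTTTCCggcg

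Rps27l, chr9:66946066-66946095, plus strand: cctctccactcctccccgccgcctctatcc

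Rplp2, chr7:141447631-141447660, plus strand: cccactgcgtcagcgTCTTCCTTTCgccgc

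Rps6, chr4:86857358-86857387, minus strand: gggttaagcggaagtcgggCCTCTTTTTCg

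The members with and without a run had like levels and ratios. The 20 with a run had a median level of 2823 CPM and a median log2 ratio of 0.0083 between the libraries, and the 43 without 2838 CPM and 0.013. Between G2M and G1 their medians were -0.065 and -0.14 with a run and -0.026 and -0.083 without. Where a gene starts at several bases, as these genes can, the annotated base is only 1 of them, so a missing run says only that these letters are not at that base.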

How the data were processed

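Per the labels, GFP+ Lin- c-Kit+ splenocytes were run on the 10x 3′ V3 chemistry, 1 library a group. The deposited matrices hold counts of UMIs per gene and barcode that the authors made with Cell Ranger 3.0.2 (matrix header) on mm10. The submitters' processing notes also list Seurat. Reads on several genes are not counted by that software, and the tags come from the 3′ end of each transcript.

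Barcodes under 500 genes or over 10% mitochondrial UMIs were dropped. Scrublet in scanpy 1.11.5 called 0.0436% and 0.0270% of barcodes doublets by its own threshold, under the 0.5% of a working call, so cells above the 95th percentile of its score were removed (340 and 333). Counts were summed per library and divided by its kept total (CPM). Genes of at least 100 UMIs were compared as log2 ratios, and a log2 ratio of 0.25 was the fold used. Intervals are exact at 95% (Poisson, Clopper-Pearson or conditional binomial) and cover counting error only. For phases, states and spread UMIs were drawn at random down to 3000 in every cell, leaving out 456 and 350 shallower cells. Mitochondrial ranges used all barcodes with at least 500 genes. With 1 library a group no test was run. Python 3.11.15, numpy 2.4.6, scipy 1.17.1, pandas 2.3.3, biopython 1.88 and matplotlib 3.10.9 were used, and the scripts were tested on simulated data.

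The members, the lists and the comparisons were chosen with earlier results of these data known. Genes were named by rule: the 10 highest and 5 lowest by level, the 5 highest and 5 lowest by library ratio, the 3 highest and 3 lowest between G2M and G1 among genes of at least 100 CPM, the paralogs and companions, and members with a known role of their own. Others are said to be picked after their values were seen. Coding sequences and lengths came from GENCODE vM21, where 252 bases are the full Rps27 coding sequence, and promoter windows from RefSeq (GRCm38.p6). Protein identity was replaced by identity of coding bases, since no protein table was used here. Some items are not reported here. Alternatives were other filters, scalings, folds, thinning depths and averages.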

Additional observations from a re-analysis of the deposited data

Results flagged for a closer look

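Barcodes outside the filters also held member UMIs. In barcodes with under 500 genes (234 in the library labelled oil, 185 in the library labelled tamoxifen) the members took 8.58% and 3.43% of UMIs, with median mitochondrial percentages of 73.1% and 94.9%. In barcodes with at least 500 genes but over 10% mitochondrial UMIs (161 and 242) they took 24.0% and 23.4%. The 9 genes named as pseudogenes, which are not members but were not taken out of the set of all genes, took 0.0421% and 0.0385%.

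Some members had ratios of opposite sign in the libraries. Each rests on 1 library a group, and the difference between the libraries was not tested. Between cells with and without a Cdkn1a UMI, Rplp1 had log2 ratios of -0.11 (oil) and 0.043 (tamoxifen), Rplp0 -0.098 and 0.030, and Rps18 -0.061 and 0.031. Rps10 had -0.069 and 0.054, Rps19 -0.069 and 0.058, and Rps27 -0.10 and 0.064. Between G2M and G1, Rps23 had 0.026 and -0.023 and Rps3a1 0.032 and -0.036.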

How the results depend on the processing

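No paired analysis was possible because neither oil nor tamoxifen has a second library, and no replicate could be left out. The member share was 26.0% (oil) and 26.4% (tamoxifen). It was 25.9% and 26.3% over all barcodes, 25.6% and 26.1% at no more than 5% mitochondrial UMIs, 27.8% and 28.2% of non-mitochondrial UMIs, 25.8% and 26.4% as a mean over cells, 26.1% and 26.6% after thinning, 25.8% and 26.2% for structural members, 26.0% with doublets kept (oil), and 26.0% and 26.4% without barcodes at or under 2% mitochondrial UMIs, the last chosen after seeing the data. The median member log2 ratio of 0.017 was 0.0058 at no more than 5% mitochondrial UMIs, 0.0026 with median-of-ratios scaling and 0.028 with a total free of mitochondrial, ribosomal and haemoglobin genes. The median of all genes was -0.037 at no more than 5% mitochondrial UMIs. With the library total, median-of-ratios and the reduced total it was 0.014, 0 and 0.025, with 47, 43 and 51 members above 0. Past the fold was 1 member, with 0 at a fold of 0.5, 9 at 0.1 and 3 at no more than 5% mitochondrial UMIs (Rpl22l1, Rps27rt and Rps19bp1), where 37% of all genes passed. The log2 ratio of the share at 0 to 2% over 6 to 8% mitochondrial UMIs, -0.25 (oil) and -0.47 (tamoxifen), was -0.33 and -0.56 of non-mitochondrial UMIs, -0.30 and -0.36 as a median over barcodes, and -0.017 and -0.59 after thinning, on 8 and 4 barcodes. The G2M over G1 ratio, -0.069 and -0.11, was -0.085 and -0.11 without thinning, -0.063 in both at 1500 UMIs and -0.075 and -0.067 as a mean over cells. In the library labelled oil it was -0.079 of non-mitochondrial UMIs and -0.075 with doublets kept. At no more than 5% mitochondrial UMIs it was 0.038 (oil), of the opposite sign, and -0.050 (tamoxifen). The rank correlation with coding length ran from 0.23 to 0.44 over 10 alternatives. Of 91 alternative values for single genes 88 kept their sign, the exceptions being Rps2 (-0.026) and Rps27l (-0.082) at no more than 5% mitochondrial UMIs and Fau (-0.0027) with median-of-ratios scaling. The causes were not tested.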
